A study of Mus musculus with 6 samples.

Results

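The Ikaros family of zinc finger transcription factors (Ikzf1 to Ikzf5), the transcription factor Foxp3 and the IL-2 receptor alpha chain Il2ra were followed in whole kidneys of lupus-prone and control mice. The members were all probes that are no controls and that the array annotation assigns to one of these 7 genes, 22 probes of 56605 on the array, for 7 of 36870 gene names. The arrays held 3 female LPR mice (MRL/lpr) and 3 female MRL mice (MRL/MpJ), all at 6 months of age, with 1 mouse per array, no treatment of either group in the labels and all 6 arrays on 1 slide. LPR mice are MRL mice homozygous for the lpr mutation of Fas, a death receptor of lymphocytes. They are used as a model of lupus nephritis. A single strain pair at 1 age was measured, and the tissue was the whole kidney, not sorted cells.

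Ikaros (Ikzf1), Helios (Ikzf2), Aiolos (Ikzf3), Eos (Ikzf4) and Pegasus (Ikzf5) bind DNA through zinc fingers and pair with one another through zinc fingers at the other end of the protein. Ikaros is needed for the development of lymphocytes, Aiolos is abundant in B cells, plasma cells and activated T cells, and Helios and Eos are known from regulatory T cells (Treg). Foxp3 is the factor that defines Treg, and Il2ra (CD25) gives the IL-2 receptor its high affinity and is carried by Treg and by activated T cells.

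Each value below is a log2 intensity relative to the 75th percentile of its array, so that 0 is the brightness of the spot at that percentile, and a log2 change is LPR minus MRL. Probes whose signal the scanner software marked as well above background on 3 or more of the 6 arrays were tested by limma, a linear model fitted over all probes, and a probe was called at an adjusted p under 0.05. The genes were chosen by their intensities in this same comparison of LPR with MRL mice, so their changes and calls are a description. Brightness differs from probe to probe for reasons of sequence, so changes were taken between mice at the same probe. Where a gene or list is described by its brightest probe, or levels are summed, brightness does not rank genes by RNA. In whole kidney, a difference in the number of cells and a difference in RNA per cell cannot be told apart. Nothing in the labels says more of the replicates than that they are separate mice.

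Of the 22 probes, 21 were tested. By limma 11 of them were called higher in LPR mice and 0 lower, which left 10 short of the threshold. Of the 11, 3 were above background on no MRL array and so passed the filter only through the LPR mice. Ikzf2 A_52_P268911 (1 MRL array above background), Ikzf3 A_55_P2504196 (2) and Il2ra A_55_P1980796 (2) also needed LPR arrays to pass the filter. The count of probes called higher was 5 when all 6 arrays had to be above background and 6 with the slide column in the fit. At an unadjusted p under 0.05 the numbers were 12 higher and 1 lower. Over the whole array, 6.53% of the 39924 tested probes were called higher and 6.17% lower. The LPR mice lay above every MRL mouse for 13 of the 22 probes, one of them untested, and below for 1, whereas 11.0% of all tested probes had such a separation upward and 26.9% downward. The median change of all tested probes was -0.14.

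The probes of Ikzf2, of Ikzf3 and of Il2ra differed in their calls, so these probes are shown first, with the single probe of Foxp3. Each line gives 30 of the 60 bases of a probe, 5′ to 3′ in the sense of the transcript. Capitals mark bases within runs of 16 that also occur, on either strand, in a probe of another gene or in the RefSeq promoter window (GRCm38.p6) of another gene.
Ikzf3 A_55_P2504196: agagccaggaatcccaaattcccggtatgt
Ikzf3 A_55_P2113598: aacattcctcctcaaacacacaaatagctt
Ikzf3 A_66_P109917: gatccTCCTGCCAGAGAAGATcttgccttc
Ikzf3 A_52_P18746: ggttttatcaaggaccctcattgaccgtct
Ikzf3 A_55_P2716832: AGAGGCAGGAGAATCTCTGTGAGTTTGAAG
Ikzf3 A_55_P2738802: ttggcttatgagaggagttaggtaggtgac
Ikzf2 A_55_P2719095: agtagctgtttattggactagcctgtcctt
Ikzf2 A_52_P268911: caaaccaaataagctacttaactacaagca
Ikzf2 A_55_P2502037: tgcgacaGTCTCTGCAGCTGTGTGagctgt
Il2ra A_55_P1980796: gtgGCTTCTGTTTGATCTCTctcaatgata
Il2ra A_55_P2716117: gaagattTTGAGTTTGAGGCCAGCacagag
Foxp3 A_55_P2032703: attatgtgttggagtgtgcctgaacagctc
The brightest Ikzf3 probe, A_55_P2716832, shared such runs with probes of Bmp8a and Herc1 and with the promoter windows of 8 other genes, and the brightest Il2ra probe, A_55_P2716117, with a probe of Lsm1 and the windows of 9 other genes. Among every 20th probe of the array (2831 probes), 29.5% shared a run with the window of at least 1 other gene and 1.87% with those of 8 or more. A probe of another gene shared a run with 19.4% of all probes. Neither of these 2 probes passed the threshold. The called Il2ra probe, A_55_P1980796, also shared a run with a probe of another gene, Rsl24d1. The part of the shared runs in any of these signals was not tested.

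Foxp3 was measured by a single probe, A_55_P2032703 (mm9, chrX:7172301-7172360, plus strand, transcript NM_001199347). Its level was -5.78, -4.99 and -5.70 in the MRL mice and -3.88, -3.91 and -3.55 in the LPR mice. The lowest LPR mouse stood 1.09 above the highest MRL mouse, and the probe was marked well above background on all 6 arrays. In MRL 1 and MRL 3, though, it lay close to the lowest signals so marked on those arrays, -5.88 and -5.97. The deposited intensities, not normalized between arrays, were 13.4 to 22.4 in MRL mice and 49.3 to 64.7 in LPR mice, so the signal was dim in both. The group means were -5.49 ± 0.43 (SD, n = 3) and -3.78 ± 0.20 (SD, n = 3), a log2 change of 1.71 (standard error 0.23) or 3.28-fold, and limma called it higher. With the normexp background correction the Foxp3 change was 0.49, still called. With the column of the slide in the fit it was 1.61 and not called. All MRL mice and LPR 1 lay in the same column and the other LPR mice in the next, so that this value is LPR 1 against the MRL mice.

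The 2 Il2ra probes stood 44539 bases apart along the gene and differed. At the downstream probe A_55_P1980796 (mm9, chr2:11614744-11614803, plus strand) the MRL mice had levels of -5.41, -5.90 and -5.18 and the LPR mice -3.27, -4.20 and -3.31. The groups did not overlap, and LPR 2 was the lowest of the LPR mice. The change was 1.91 (standard error 0.30), and the probe was called higher, with 2 of 3 MRL arrays above background. With normexp this Il2ra change was 0.57 and still called, whereas both forms of the methods' test, after adjustment, did not call it. The upstream probe A_55_P2716117 (mm9, chr2:11570205-11570264) had a mean of -3.69 ± 0.11 (SD, n = 3) in MRL mice, against -3.40 ± 0.15 (SD, n = 3) with the lpr mutation. Its change of 0.29 (standard error 0.12) did not pass, although the groups lay 0.09 apart.

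All 4 Ikzf1 probes were called higher. At its brightest probe, A_55_P2023607 (mm9, chr11:11661344-11661403, plus strand), the MRL mice had levels of -4.44, -4.26 and -4.15 and the LPR mice -1.30, -1.50 and -0.89. The gap between the groups was 2.64, wider than the spread within either. The change was 3.05 (standard error 0.18), or 8.30-fold. At A_52_P618569, whose coordinates span 2960 bases, the change was 2.87 (standard error 0.16), and at A_55_P2741629, the most downstream probe, it was 2.37 (standard error 0.13). The fourth probe, A_55_P2741959, passed background on all LPR arrays but on no MRL array. It was higher in LPR mice by at least 2.31-fold. Such a bound sets the LPR mean against MRL signals taken no lower than the detection limit of each array. That limit is the lowest signal of any probe well above background on the array. Signals of undetected probes can lie above it, as here in MRL 2 (-5.91 against -6.01), so the bound is approximate. With normexp the 3 probes above background on all arrays were called with changes of 1.27 to 1.82. A_55_P2741959 was not called with normexp, with the slide column or with either form of the methods' test.

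**Figure D1:**
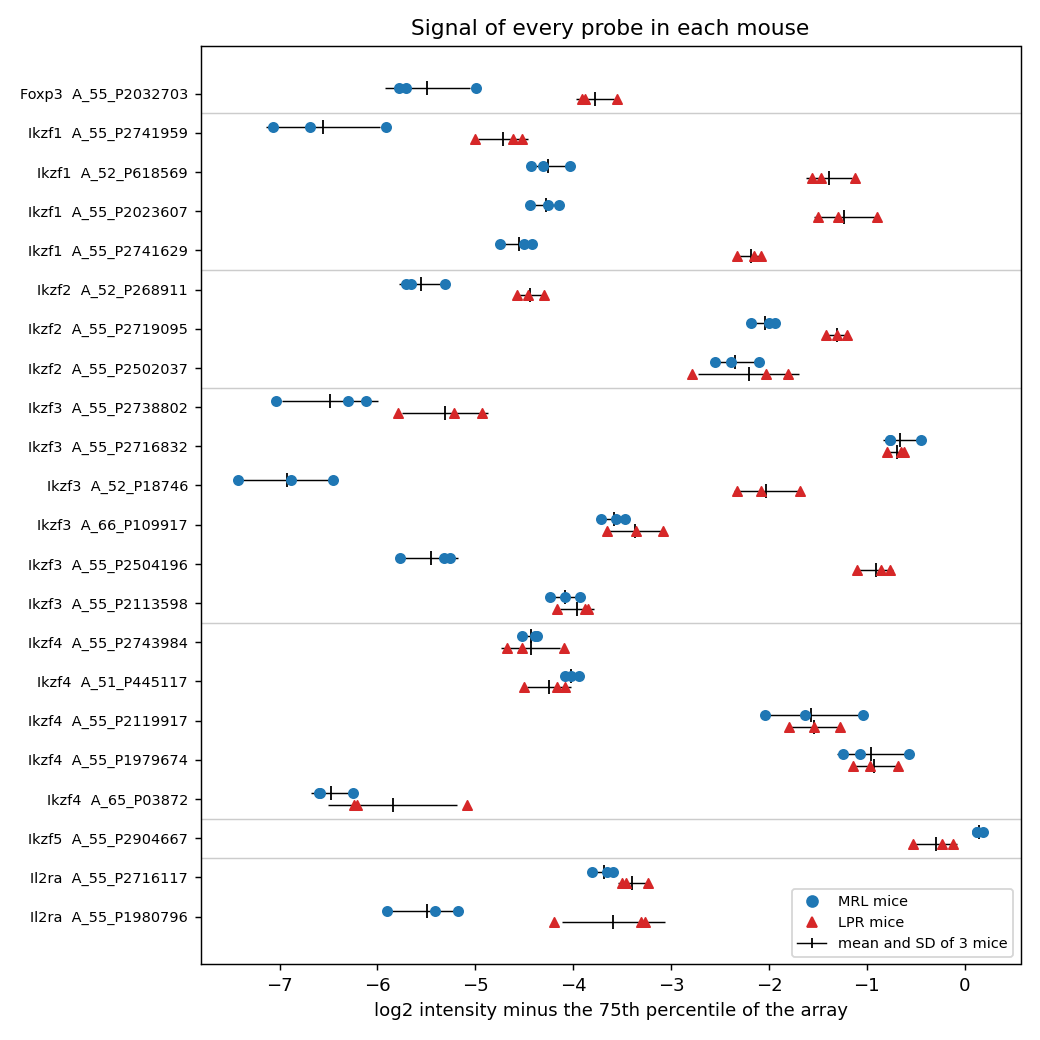
Level of each of the 22 probes in each mouse, as log2 intensity minus the 75th percentile of the array, with MRL mice as circles, LPR mice as triangles and the mean with its SD in black. The Ikzf1, Foxp3 and Il2ra probes keep the groups apart (the upstream Il2ra probe by only 0.09), while 3 of the 6 Ikzf3 probes and the tested Ikzf4 probes overlap.

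Ikzf3 had the widest range of the members. Of its 6 probes, 3 were called higher and the others did not pass. At A_55_P2504196 (mm9, chr11:98326276-98326335, minus strand) the MRL mice had levels of -5.76, -5.32 and -5.26 and the LPR mice -1.10, -0.86 and -0.76. The groups were 4.16 apart, the change was 4.54 (standard error 0.17) and 2 of 3 MRL arrays were above background. At A_55_P2113598 (mm9, chr11:98326176-98326235), which lies 100 bases further downstream under the same transcript NM_011771, the levels were -3.93, -4.08 and -4.24 in MRL mice and -4.16, -3.88 and -3.85 in LPR mice. These groups overlapped, and the change was 0.12 (standard error 0.14), with all 6 arrays above background. Another probe of that transcript, A_66_P109917, 2503 bases upstream of the last, had a change of 0.22 (standard error 0.16) that did not pass.

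Further upstream the Ikzf3 probes differed again. A_52_P18746 (mm9, chr11:98345606-98345665, transcript ENSMUST00000140876) passed background on no MRL array and on all LPR arrays. Its LPR levels were -2.33, -2.08 and -1.68, and under the reported processing the LPR mice were higher by at least 15.1-fold. With normexp the log2 change of this probe was 1.83, smaller than that bound and still called. A_55_P2716832 (mm9, chr11:98374062-98374121) and A_55_P2738802 (mm9, chr11:98376825-98376884) are both assigned to ENSMUST00000152400. The former had a mean of -0.66 ± 0.18 (SD, n = 3) in the MRL group. The LPR group had -0.69 ± 0.09 (SD, n = 3), and the change of -0.03 did not pass. The latter was above background on no MRL array and was called higher, by at least 1.56-fold, but kept its call under only 5 of the 22 alternatives that tested it. Among the Ikzf3 probes above background in mice of both groups, the changes ran from -0.03 to 4.54. Which of the transcripts of Ikzf3 were present was not tested. If the brightest probe stands for Ikzf3 there is no call, whereas the mean of its tested probes was called higher with a change of 1.82, a value that rests in part on MRL signals at background.

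**Figure D2:**
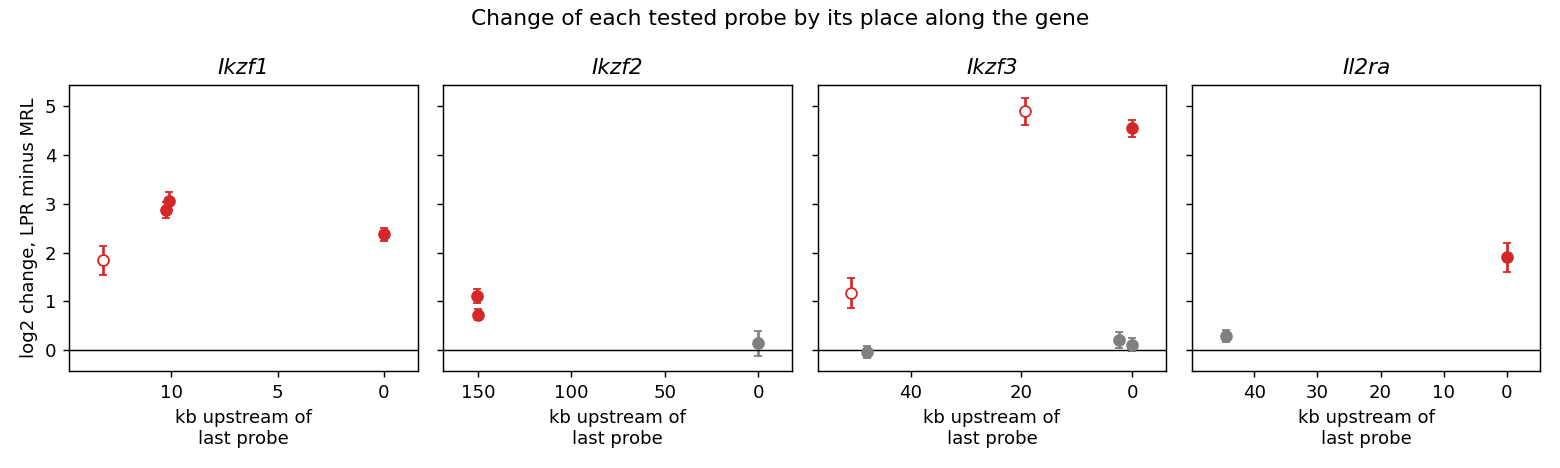
Log2 change (LPR minus MRL, bars for the standard error) of each tested probe against its distance in kb upstream of the most downstream probe of its gene, with called probes in red, others in grey and open symbols where no MRL array was above background. At the right edge of the Ikzf3 panel the probes with changes of 4.54 and 0.12 lie 100 bases apart.

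Ikzf2 changed less than Ikzf1. At A_55_P2719095 (mm9, chr1:69728143-69728202, minus strand) the MRL mean was -2.04 ± 0.13 (SD, n = 3), while the LPR mice had levels of -1.41, -1.31 and -1.20. The groups did not overlap, and the change was 0.73 (standard error 0.12), or 1.66-fold, called higher. A_52_P268911, nearby on the same strand, changed by 1.11 (standard error 0.15) with 1 of 3 MRL arrays above background, and with normexp its change was 0.17 and not called. At the other end of the probed stretch, 149891 bases downstream, A_55_P2502037, the only Ikzf2 probe under the RefSeq transcript NM_011770, had a mean of -2.35 ± 0.23 (SD, n = 3) in the MRL group. The LPR mean was -2.21 ± 0.51 (SD, n = 3). The groups overlapped, and the change of 0.14 did not pass. With the slide column in the fit none of the Ikzf2 probes was called.

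Ikzf4 was measured by 5 probes on chromosome 10, and none was called. The 4 tested probes had changes from -0.23 to 0.03 and overlapping groups. The fifth, A_65_P03872, was above background on 1 LPR array only and was not tested. Ikzf5, at A_55_P2904667 (mm9, chr7:138532517-138532576, minus strand), had levels of 0.13, 0.13 and 0.19 in MRL mice and -0.12, -0.53 and -0.24 in LPR mice. Here the LPR mice lay below every MRL mouse, the one such case among the members. The Ikzf5 change of -0.44 (standard error 0.13) did not pass, and it was called lower with normexp (-0.40) and with an intensity trend in limma.

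**Figure D3:**
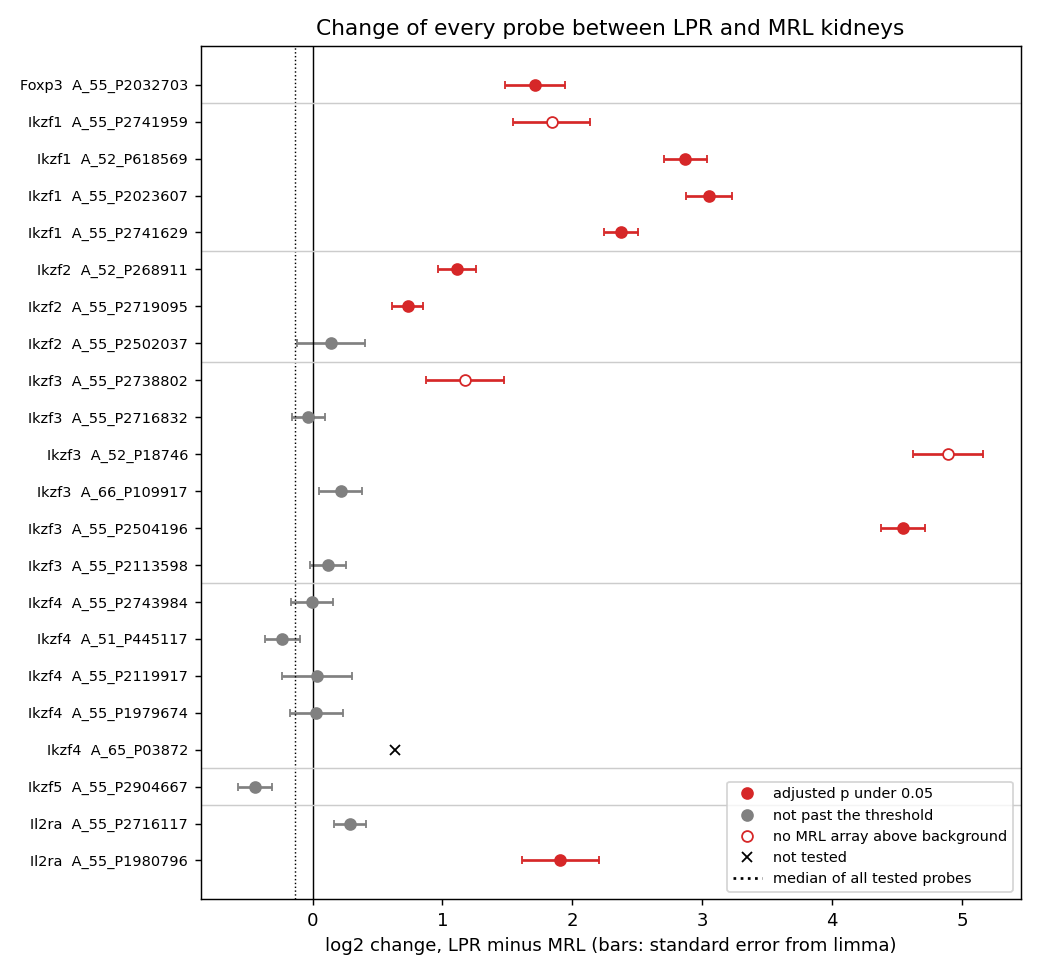
Log2 change (LPR minus MRL) of each of the 22 probes with its standard error from limma, with called probes in red, others in grey, open symbols where no MRL array was above background, a cross for the untested probe and a dotted line at the median of all tested probes, -0.14. Changes run from -0.44 at Ikzf5 to 4.89 at an Ikzf3 probe without MRL signal above background.

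Other genes of the same biology were followed by the brightest tested probe of each, and over all 25805 genes so taken 7.12% were called higher and 5.47% lower, with a median change of -0.12. Of 22 tested genes associated with Treg, 15 were higher, 0 were lower and 7 did not pass, with a median change of 1.57. The largest changes were those of Lag3, Tigit, Icos and Tnfrsf18 (GITR). Lag3 and Tigit are inhibitory receptors also carried by other activated T cells, Icos is a costimulatory receptor and Tnfrsf18 a TNF receptor family member. Lag3 changed by 3.94 (limma adjusted p = 4.87e-05), Icos by 3.86 (limma adjusted p = 2.54e-05) and Tnfrsf18 by 3.34 (limma adjusted p = 6.28e-05), and Tigit, above background on no MRL array, was at least 4.23-fold higher. Tnfrsf9, Il10 and Klrg1, also called higher, were likewise above background on no MRL array. The inhibitory receptor Ctla4 had a change of 1.15 and did not pass (limma adjusted p = 0.0983). Of the others that did not pass, Ccr8 (-0.80), Nt5e (-0.48) and Nrp1 (-0.23) had negative changes. Itgae (0.31), Lrrc32 (0.30) and Il1rl1 (0.21) had positive ones. When each LPR mouse was left out and the filter on dim probes was applied to the remaining arrays, 8 or 9 Treg-associated genes were higher, and 9 were with all 6 arrays required above background.

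Of the genes that regulate Foxp3 or act with it, 8 of 24 tested were higher and 0 lower, with a median change of -0.01. The 4 with the largest changes were Irf4 (3.43), Tcf7 (2.96), Runx3 (2.50) and Runx1 (1.83), transcription factors used by many lymphocytes. Calls here are those at the brightest probe. The probes of a gene differed in their calls for 4 of the 24, among them Tet2 (1 probe lower) and Nr4a3 (1 probe higher). In the IL-2 receptor pathway 6 of 20 were higher and 0 lower, with a median change of 0.12. The 2 chains that complete the receptor with Il2ra both rose, Il2rb by 3.67 (limma adjusted p = 1.79e-05) and Il2rg by 2.40 (limma adjusted p = 6.12e-05), as did Il7r (3.86) and the feedback inhibitor Socs1 (2.76). Il2 itself was tested at 1 of its 2 probes and did not pass. Its mean was -5.62 ± 0.11 (SD, n = 3) in the MRL group and -5.59 ± 0.22 (SD, n = 3) in the LPR group. These levels lay close to the detection limits of the arrays, -6.41 to -5.88. The 18 chromatin partners of Ikaros proteins included the remodeller Chd4 and the deacetylases Hdac1 and Hdac2. At its brightest probe none was called in either direction, and their median change was -0.06. Gatad2b, another of them, had its other tested probe called lower.

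Many markers of the infiltrating cell types were also higher in the same mice, but not all, and the B cell and NK cell lists were mixed. Of 16 T cell markers 14 were higher, with a median change of 3.28, led by Cd2 (4.64), Cd3g (4.15), Cd3d (4.14) and Cd6 (3.76). Their summed linear level was 5.90 to 7.02 in MRL mice and 26.1 to 30.2 in LPR mice. Such a sum, here and below, adds probes of unlike brightness, so it follows mainly the brightest probes of a list and does not measure cells. A larger change than that of Foxp3 was seen in 13 of the 16 T cell markers, and than that of the brightest Ikzf1 probe in 9. The Ikzf3 probes differed here too. A larger change than that of A_55_P2504196 was seen in 1, but all 16 exceeded the brightest Ikzf3 probe, A_55_P2716832. A_55_P2113598 was exceeded by 15 and A_66_P109917 by 14. Of 11 tested B cell markers 5 were higher and 5 did not pass, with a median change of 0.37. Among the higher were Cd72 (3.23), Cd79b (2.83) and Bank1 (at least 6.10-fold). Ms4a1 was lower (-0.70) at its brightest probe, a call lost in 22 of the alternatives. The other tested Ms4a1 probe was called higher, and the mean change over both was 2.15. Cd22 did not pass at its brightest probe (-0.03), but 1 of its other probes was called higher. The sums were 2.43 to 3.43 in MRL mice and 9.70 to 9.98 in LPR mice. Of 7 plasma cell markers 6 were higher, led by Pou2af1 (5.28), Jchain (4.49), Mzb1 (4.35) and Tnfrsf17 (at least 7.72-fold), with sums of 31.7 to 46.6 and 81.7 to 155.8. The brightest of the 7 in MRL mice, Xbp1 (5.05 in MRL and 5.48 in LPR mice), did not pass. The 12 macrophage and dendritic cell markers had 9 higher, with Itgax (3.82), C1qa (3.43), C1qb (3.34) and Lyz2 (3.15) in the lead and sums of 128 to 153.4 and 229.3 to 232.2. The brightest of the 12, Siglech (6.64 in MRL and 6.53 in LPR mice), did not pass. Of 4 NK cell markers Eomes (3.43) and Klrk1 (2.55) were higher and 2 did not pass, with overlapping sums of 1.21 to 1.30 and 0.991 to 1.37. The brightest of the 4, Klra1 (0.22 in MRL and -0.47 in LPR mice), did not pass. The part of the cell numbers in the member levels was not tested.

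**Figure D4:**
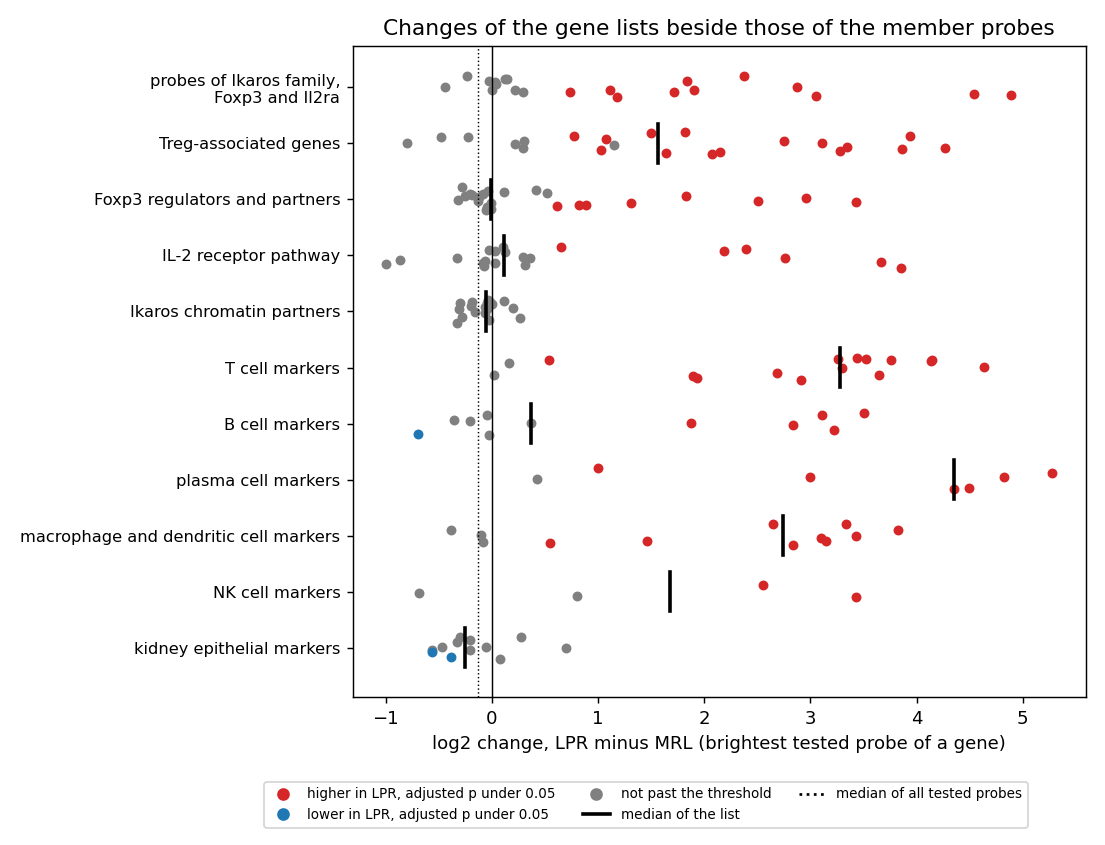
Log2 change (LPR minus MRL) of each tested gene by list, at its brightest probe, with the 21 tested member probes in the top row, a bar at each list's median and a dotted line at -0.14, the median of all tested probes. The T cell, plasma cell and macrophage lists lie mostly to the right, with medians of 3.28, 4.35 and 2.74, while the Ikaros chromatin partners stay near 0.

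The arrays measured kidney in both groups. Of 12 kidney epithelial markers Slc5a2 (-0.57) and Lrp2 (-0.39) were lower and the others did not pass, with a median change of -0.25. Arrays of a group correlated at 0.990 to 0.993 over the tested probes and arrays of different groups at 0.961 to 0.971. Between 69.6% and 73.5% of spots were well above background, and no spot was saturated. The brighter probe of Fas had a change of -0.47 that did not pass, with the LPR mice below every MRL mouse. The other had a change of 1.89 that did pass (limma adjusted p = 0.0338). Its MRL mean of -7.29 lay below the detection limits of the MRL arrays, -6.01 to -5.88, so that change rests in part on signals at background. Fas therefore gave no check of the labels.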

How the data were processed

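Kidney RNA of 3 MRL and 3 LPR mice was measured on 6 single-colour arrays (labels name the RNeasy Mini Kit, the methods Trizol). The authors deposited intensities from Feature Extraction 12.0.3.1, background-subtracted and detrended within each array but not normalized between arrays, and a table of their ratio to each array's 75th percentile, used as an alternative. Probe positions are in mm9. Intensities were taken to log2, the 75th percentile over all non-control spots was subtracted, outlier spots (73 to 90 per array) were left out and spots of 1 probe averaged. Groups were compared with limma 3.58.1 (R 4.3.3) and Benjamini-Hochberg adjustment over all tested probes. An exact test of 3 against 3 mice cannot pass 0.05, and none is given. The number of arrays limits the precision.

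The members and lists were chosen with earlier results of these data known. Named are all member probes, up to 4 list genes per direction with the largest called changes, and genes that check the tissue. A gene of the lists is not reported here and remains in the counts. Ctla4 and the other Treg-associated genes beyond the largest changes, Il2, Xbp1, Tet2, Nr4a3, Cd22 and the chromatin partners were named outside that rule, after their values were seen. The promoter table was searched for 4 short motifs. On simulated data of 39916 probes with independent noise, 200 probes were changed by set sizes. There limma recovered 122 of the 200, and 81 of the 100 with the larger change, with 6 false calls. In the real data a larger share of probes, 12.7%, was called, so these figures need not hold for it. Figures used matplotlib 3.10.9.

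Same-numbered mice of the 2 groups deviated together with correlations of 0.115, 0.02 and 0.005, so the numbers were not taken to pair them. The alternatives were another background correction, normalization, filter, floor, test or variance model, the slide column or replicate number in the fit, outlier spots kept, the authors' ratios, the mean of a gene's probes, and leaving out each mouse.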

Additional observations from a re-analysis of the deposited data

How the results depend on the processing

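Of 592 counts recomputed under 27 alternatives, 516 stayed within 1.5 times the reported count and 76 moved, and of 531 recomputed changes of single probes 508 stayed within 1 SD and none turned its direction among called probes. The count of member probes higher in LPR mice, 11, was 5 when all 6 arrays had to be above background, 6 with the slide column in the fit, 8 with normexp and 8 after Benjamini-Hochberg adjustment with either form of the methods' test, log2 or linear (11 without adjustment, in both). The count of lower member probes, 0, was 1 (Ikzf5) with normexp and with the intensity trend. With the replicate block 11 member probes were higher and 0 lower, and no member call changed. Without each mouse in turn the higher count was 10 to 11. In that form the probes passing the filter on all 6 arrays were kept. With the filter applied to the remaining arrays, an alternative computed first, replaced and then added back after seeing the data, it was 8 to 10, with 8 whenever an LPR mouse was left out.

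Among the lists, Treg-associated genes higher (15) were 9 with all 6 arrays above background, 11 to 16 without each mouse, and 8 to 16 with the filter on the remaining arrays, where they were 8 without LPR 1, 9 without LPR 2 and 8 without LPR 3. Treg-associated genes lower (0) were 1 (Ccr8) with all 6 arrays above background and 0 to 1 without each mouse. Genes that regulate Foxp3 (8 higher) were 5 with the slide column and 4 with the linear methods' test, IL-2 pathway genes lower (0) were 0 to 1 without each mouse (Il15ra, without LPR 2), and chromatin partners lower (0) were 1 (Gatad2b) with normexp. B cell markers higher (5) were 4 to 5 without each mouse and 3 to 5 with the filter on the remaining arrays, 3 whenever an LPR mouse was left out. B cell markers lower (1) were 0 under quantile normalization, median shift, percentile over detected probes, the authors' ratios, no filter, slide column, replicate block, both methods' tests, the mean of the probes and without any 1 mouse. NK cell markers higher (2) were 1 with all 6 arrays above background, and NK cell markers lower (0) were 1 (Klra1) there and with normexp, median shift, floor and intensity trend, and 0 to 1 without each mouse. Plasma cell markers higher (6) were 0 with the linear methods' test. Kidney markers higher (0) were 1 (Nphs1) with normexp, intensity trend and replicate block and 0 to 1 without each mouse. Kidney markers lower (2) were 4 with normexp and intensity trend, 1 with quantile normalization, median shift, percentile over detected probes, the authors' ratios, slide column and replicate block, 0 with no filter and 0 to 1 without each mouse. The cause of these moves was not tested, except that fewer probes are tested where the filter is stricter.

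With normexp, which adds an offset of 50, the changes of Foxp3 (0.49), the downstream Il2ra probe (0.57) and the Ikzf3 probe A_55_P2504196 (2.55) were smaller, and all 3 were still called.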

Other observations

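The genes whose profile over the 6 arrays was nearest to that of a member, by the root mean square difference of log2 values taken relative to the MRL mean over the candidate genes, were as follows. For Foxp3 they were Colq (0.171), Cpxm1 (0.190) and Egr2 (0.209), and 2 candidates lay within 0.2. For the brightest Ikzf1 probe they were C4b (0.143), Arhgap30 (0.160) and Cd44 (0.163), with 5 within 0.2. For the brightest Il2ra probe, which was not called, they were Eif4e3 (0.0457), Arhgef4 (0.0487) and Marveld1 (0.0517), but 1291 candidates lay within 0.2. With 3 mice a group, likeness of this kind follows mainly the size of the change.

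In the RefSeq promoter table (GRCm38.p6) 4 of the 7 genes had an entry, with 6 windows in all. In the 250 bases upstream of each start 4 motifs were searched on both strands. TGGGAA, the core bound by Ikaros proteins, was in 0 of the 6 windows and in 21.6% of all windows. TTCNNNGAA, the form bound by STAT proteins, was in 2 of 6 (the second Foxp3 start and Ikzf5) and in 7.02% of all. TGTGGT, bound by RUNX proteins, was in 0 of 6 and in 14.0% of all. GGGA and CC with any 4 bases between, a form bound by NF-kB, was in 2 of 6 (Il2ra and the first Ikzf1 start) and in 17.6% of all. A match is a description of letters, and its absence says nothing of the factor.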
